A study of Mus musculus with 6 samples.

Results

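The small leucine-rich proteoglycans are secreted matrix proteins built around a curved stack of leucine-rich repeats, and 8 genes of the family that are found in connective tissue were examined here: Dcn, Lum, Bgn, Fmod, Ogn, Omd, Prelp and Aspn. They were taken by symbol from a table of read counts for 31276 gene symbols, and all 8 were present. RNA came from the brain of C57BL/6 mice at postnatal day 14, in 3 wild-type samples (WT) and 3 samples labelled as a knockout of PRMT5 with olig2cre (KO). In the KO the arginine methyltransferase gene Prmt5 is targeted by Cre recombinase under control of Olig2, so deletion is directed to cells that have expressed this gene of the oligodendrocyte lineage and not to the whole brain. The labels do not say whether WT animals carried Cre or a conditional allele, nor whether the samples came from separate animals, so the tests reflect only how far these samples differ within a group. Each group held libraries with and without Xist, a transcript of females, so not all samples of a group came from 1 animal.

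In connective tissue these proteins bind collagen fibrils and regulate how wide the fibrils grow and how they are spaced. Several also carry chondroitin, dermatan or keratan sulfate chains and bind growth factors such as TGF-beta. In the brain, the fibroblasts of the meninges and of the larger vessels are their best known source, and biglycan is also made by some other cells. The family is divided by sequence into classes. Decorin (Dcn), biglycan (Bgn) and asporin (Aspn) belong to class I, lumican (Lum), fibromodulin (Fmod), PRELP (Prelp) and osteomodulin (Omd) to class II, and osteoglycin (Ogn) to class III.

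The libraries held 15089140 to 16872925 counts. Expression is given as CPM, the count per 1000000 counts of the scaled library total. Prmt5 had 90.8, 90.4 and 91.8 CPM in the WT libraries, in order of replicate number, and 68.2, 68.4 and 81.6 CPM in KO replicates 1 to 3, so KO replicate 3 was nearest to WT (log2 fold change -0.32, SE 0.095, edgeR adjusted p = 0.232, or 0.0379 with the replicate number as a block). Gabra6, a gene of cerebellar granule cells, was present in KO replicates 1 and 3 (80.03 and 22.11 CPM) and WT replicate 1 (63.84 CPM) and at 0 in the others. Xist, which is transcribed in females, was present in KO replicates 1 and 2 and WT replicate 2 (509.11 to 634 CPM) and at no more than 0.254 CPM elsewhere. Of 6 oligodendrocyte markers, all fell in KO (0.958% of all tested genes fell). These markers summed to 6980 to 9510 CPM in WT and to 1050, 1760 and 803 CPM in KO replicates 1 to 3. By them KO replicate 3 was thus farthest from WT. Of 6 neuron and 6 astrocyte markers, 0 and 0 were called by edgeR, DESeq2 or the fit with the replicate block. Among them 0 and 1 had an unadjusted edgeR p under 0.05.

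The 8 genes lie at 4 places in the mouse genome, given here in GENCODE release M21 on mm10. Dcn (chromosome 10, 97479609 to 97518143) and Lum (97565128 to 97572703) are neighbours on the plus strand with a gap of 47.0 kb, and are followed by the family genes Kera and Epyc. Aspn (chromosome 13, 49544443 to 49567565), Omd (49582462 to 49592822) and Ogn (49608046 to 49624501) form a row on the plus strand with gaps of 14.9 and 15.2 kb, preceded by the related gene Ecm2. All 4 of these lie inside Cenpp on the opposite strand and share 0 exonic bases with it. Prelp (chromosome 1, 133910304 to 133921414, minus strand) lies 115.8 kb from Fmod (134037254 to 134048277, plus strand), and 350 of its exonic bases overlap the antisense gene Gm15851, so some reads counted for Prelp may come from that gene. Bgn (chromosome X, 73483602 to 73495933, plus strand) stands alone.

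Promoter windows from RefSeq on GRCm38.p6 were at hand for 6 of the 8 genes, and not for Dcn and Lum. The 250 bases before the start are shown for Bgn, which rose in KO, and for Fmod, which is another abundant member of the family and was not called. They lie at chrX:73483351-73483600 and chr1:134037004-134037253, both on the plus strand, and capitals mark matches to the motifs searched.
Bgn: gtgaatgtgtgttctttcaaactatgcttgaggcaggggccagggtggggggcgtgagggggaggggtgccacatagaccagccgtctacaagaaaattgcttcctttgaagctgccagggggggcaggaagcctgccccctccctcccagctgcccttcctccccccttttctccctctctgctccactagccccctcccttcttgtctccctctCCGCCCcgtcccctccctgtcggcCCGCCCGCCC
Fmod: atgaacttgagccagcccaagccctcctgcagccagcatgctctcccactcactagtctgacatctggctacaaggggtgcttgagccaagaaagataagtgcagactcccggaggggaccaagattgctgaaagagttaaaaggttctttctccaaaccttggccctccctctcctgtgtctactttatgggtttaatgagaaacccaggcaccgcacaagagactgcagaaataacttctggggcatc

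The Bgn stretch was 64.4% G and C and ended in 3 matches to the GC box GGGCGG, read as CCGCCC, at 34, 10 and 6 bases before the start, the last pair overlapping. The Fmod stretch was 51.2% G and C and held no match. Over windows of 300 bases, which reach 50 bases past the start, the GC box was found on either strand in 35.7% of 32851 mouse promoters and in 1 of the 6 members. CCAAT, searched on both strands, was found in 37.4% of all windows and in 3 members (Prelp, Fmod and Aspn). TATAAA on the gene's strand was found in 8.32% of all windows and in 2 members (Aspn and Ogn), each more than 200 bases before the start. TGANTCA and GTCTAGAC, on both strands, were found in 7.81% and 0.21% of all windows and in 0 members. These matches describe the letters only.

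Lum and Bgn rose in KO brain, Dcn lay higher without being called, and the other 5 genes were not called. Lum rose 3.38-fold and Bgn 2.24-fold. All 8 genes passed the filter on low counts and were tested among 16592 genes. With edgeR's quasi-likelihood test and Benjamini-Hochberg adjustment over all of them, 2 of the 8 rose and 0 fell, where 0.241% of all tested genes rose. The median log2 fold change of the 8 genes was 0.21, against 0.01 over all tested genes. CPM ranges of KO lay above those of WT without overlap for 3 of the 8, and for 8.02% of all tested genes. Because these are whole tissue samples, more cells of a type and more RNA per cell cannot be told apart.

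**Figure D1:**
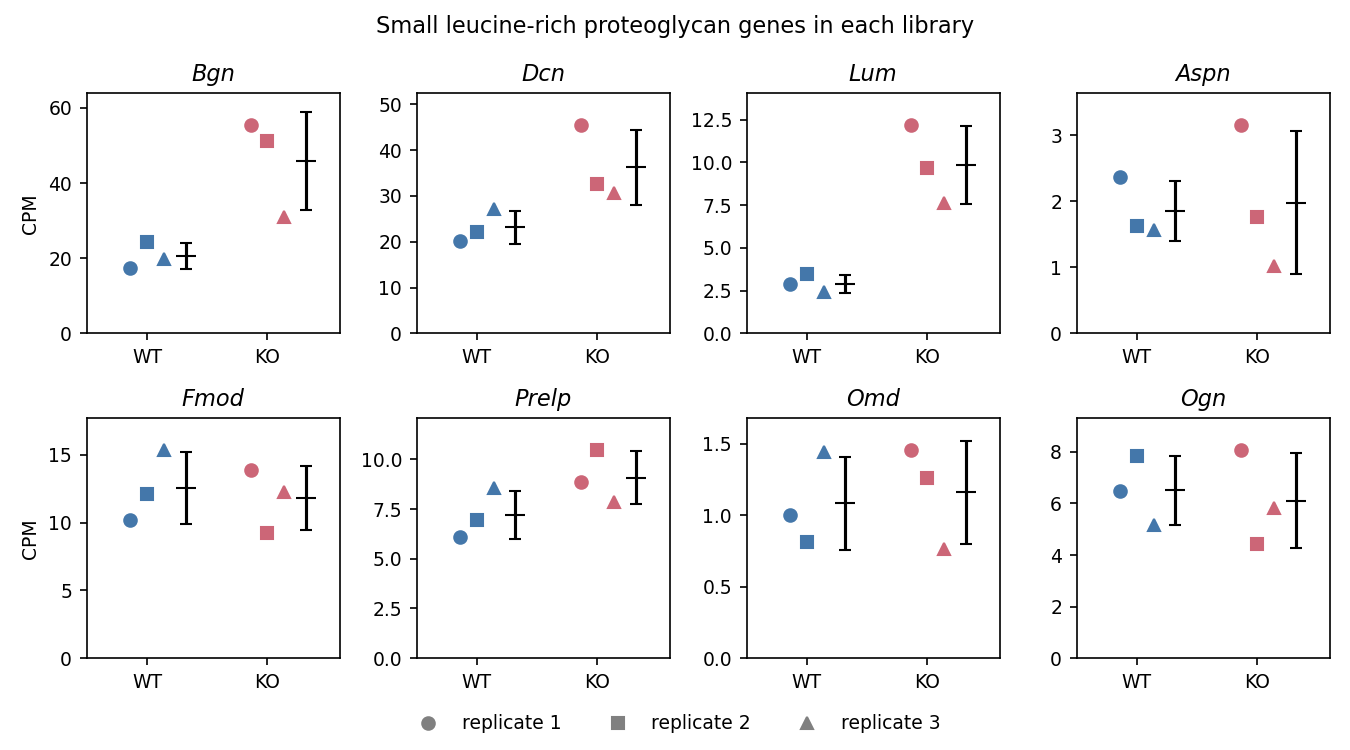
Expression of the 8 genes in CPM (vertical axes, each starting at 0) in the 3 WT (blue) and 3 KO (red) libraries, with 1 point per library, the marker shape giving the replicate number, and the mean and SD beside each group in black. The KO points lie above all WT points for Bgn, Dcn and Lum, and the groups overlap for the other 5 genes.

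Lumican carries keratan sulfate and keeps collagen fibrils thin and evenly spaced, as in the cornea. Lum had 2.87, 3.45 and 2.41 CPM in WT and 12.2, 9.70 and 7.62 CPM in KO, again in order of replicate number, from 40 to 51 counts per WT library and 120 to 200 per KO library. The lowest KO library was more than double the highest WT library. Means were 2.91 ± 0.521 CPM and 9.83 ± 2.27 CPM (± SD over 3 libraries each), which makes the log2 fold change 1.76 (SE 0.234, 95% interval 1.24 to 2.27, edgeR adjusted p = 0.00329). By size of log2 fold change Lum was 16th of the 16592 tested genes. In same-numbered pairs the KO library was 4.23, 2.82 and 3.17 times the WT library.

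Biglycan is a class I protein that carries a pair of chondroitin or dermatan sulfate chains and, once released from the matrix, can act as a ligand of Toll-like receptors. Bgn stood at 17.5, 24.3 and 19.8 CPM in WT and at 55.5, 51.3 and 31.0 CPM in KO. No KO library reached down to the WT range, and KO replicate 3 was nearest to it. Means were 20.5 ± 3.44 and 45.9 ± 13.1 CPM (± SD over 3 libraries each), which makes the log2 fold change 1.16 (SE 0.206, 95% interval 0.71 to 1.62, edgeR adjusted p = 0.0205). Bgn was no longer called when KO replicate 2 (edgeR adjusted p = 0.0945), WT replicate 1 (0.0744) or WT replicate 3 (0.109) was left out, with log2 fold changes of 1.08, 1.06 and 1.13. Of all tested genes 0.0712%, 0.149% and 0.0533% rose in these fits.

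Bgn is X-linked, and its highest library in each group was one with Xist. With a term for sex in the fit the log2 fold change of Bgn was 0.94 (edgeR adjusted p = 0.0126) and that of Lum 1.59 (0.00776), where 0.0904% of all tested genes rose. Among the 3 libraries with Xist alone it was 1.14 for Bgn (edgeR adjusted p = 0.0429) and 1.66 for Lum (0.119). Among the 3 without it, these were 0.73 (edgeR adjusted p = 0.0735) and 1.53 (0.0603), so the direction was kept in both sets and Lum was called in neither. In each set 0.0758% of all tested genes rose. In each of these sets 1 group has a lone sample, which is assumed to vary like the others. A test of the difference between the sets called 0 of 16592 genes in edgeR, with 652 at an unadjusted p under 0.05, and for Bgn it gave 0.40 (SE 0.24, edgeR adjusted p = 0.937).

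Decorin, named for the way it decorates collagen fibrils, carries a single chondroitin or dermatan sulfate chain and binds TGF-beta. Dcn stood at 20.1, 22.2 and 27.1 CPM in WT and at 45.5, 32.5 and 30.6 CPM in KO. All KO libraries lay above all WT libraries, by a narrow margin between KO replicate 3 and WT replicate 3. Means were 23.1 ± 3.64 and 36.2 ± 8.09 CPM (± SD over 3 libraries each). The log2 fold change of 0.65 (SE 0.171, 95% interval 0.27 to 1.02) was not called (edgeR adjusted p = 0.158). Dcn was called with the replicate block (0.64, edgeR adjusted p = 0.0156), where 1.03% of all tested genes rose, and by DESeq2 (adjusted p = 0.0244), where 0.45% rose. In same-numbered pairs the KO library was 2.27, 1.47 and 1.13 times the WT library.

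Prelp encodes a heparin-binding protein found where connective tissue meets basement membrane. It stood at 6.12, 6.96 and 8.54 CPM in WT and at 8.88, 10.5 and 7.88 CPM in KO, and the groups overlapped through WT replicate 3 and KO replicate 3. The log2 fold change was 0.33 (SE 0.19, 95% interval -0.09 to 0.75, edgeR adjusted p = 0.612), so a rise of up to 1.68-fold lies within the interval.

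Fibromodulin competes with lumican for sites on collagen. Fmod stood at 10.2, 12.1 and 15.4 CPM in WT and at 13.9, 9.26 and 12.3 CPM in KO. The groups overlapped over most of their range, and the highest library was a WT library. Its log2 fold change was -0.09 (SE 0.197, 95% interval -0.52 to 0.35, edgeR adjusted p = 0.917), which leaves room for a fold between 0.696 and 1.27.

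Osteoglycin, also called mimecan, is a class III protein first isolated from bone. Ogn stood at 6.5, 7.84 and 5.17 CPM in WT and at 8.09, 4.41 and 5.84 CPM in KO. The KO group held both the highest and the lowest library, and the log2 fold change was -0.09 (SE 0.251, 95% interval -0.64 to 0.47, edgeR adjusted p = 0.94).

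Aspn and Omd were the least abundant members, and their counts limit what could be seen. Asporin binds collagen and TGF-beta. Aspn had 24 to 38 counts per WT library and 16 to 52 per KO library, or 2.37, 1.62 and 1.56 CPM against 3.16, 1.76 and 1.02 CPM. The KO group again held the highest and the lowest library (log2 fold change 0.10, SE 0.415, 95% interval -0.82 to 1.01, edgeR adjusted p = 0.955).

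Osteomodulin is a keratan sulfate protein of mineralized tissue. Omd had 12 to 24 counts per library in both groups, at 0.999, 0.811 and 1.44 CPM in WT and 1.46, 1.26 and 0.762 CPM in KO. The groups overlapped (log2 fold change 0.09, SE 0.409, 95% interval -0.81 to 0.99, edgeR adjusted p = 0.957). For both genes a change of about 2-fold in either direction lies within the interval.

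**Figure D2:**
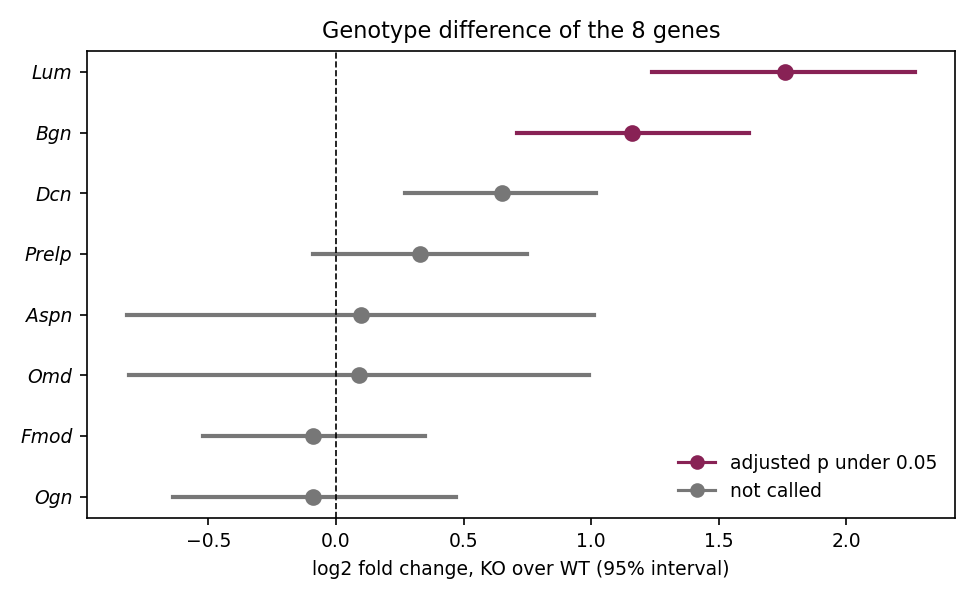
Log2 fold change of KO over WT (horizontal axis) with its 95% interval for each of the 8 genes, from edgeR's quasi-likelihood fit of 3 WT and 3 KO libraries. The intervals of Lum (1.24 to 2.27) and Bgn (0.71 to 1.62) are drawn in purple as called, and Dcn is the only other gene whose interval excludes 0.

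The members on a shared stretch of chromosome did not all move alike. Lum and its neighbour Dcn had log2 fold changes of 1.76 and 0.65. The row of Aspn, Omd and Ogn on chromosome 13 had 0.10, 0.09 and -0.09, and Ecm2, at its start, 0.27. By class, class I held 1 called gene of 3 (Bgn), class II 1 of 4 (Lum) and class III 0 of 1, where 0.241% of all tested genes rose. Classes of so few genes cannot be compared. KO replicate 3 was the lowest KO library for 6 of the 8 genes (all but Fmod and Ogn), and KO replicate 1 was the highest for 7 (all but Prelp).

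Levels were compared between genes as CPM per kb of exon. In WT, Dcn was the highest at 11.9 ± 1.88 CPM per kb, followed by Bgn at 8.48 ± 1.42, Fmod at 4.03 ± 0.838, Ogn at 2.53 ± 0.519, Prelp at 1.99 ± 0.34, Lum at 1.19 ± 0.213, Aspn at 0.787 ± 0.192 and Omd at 0.482 ± 0.145 (SD, n = 3). Neighbours in this order did not overlap, except Ogn with Prelp and Lum with Aspn. In KO the order was Bgn at 19.0 ± 5.42 CPM per kb, Dcn at 18.7 ± 4.17, Lum at 4.02 ± 0.928, Fmod at 3.79 ± 0.759, Prelp at 2.51 ± 0.36, Ogn at 2.38 ± 0.722, Aspn at 0.842 ± 0.463 and Omd at 0.516 ± 0.16 (SD, n = 3). Bgn and Dcn overlapped there, as did Lum and Fmod, Prelp and Ogn, and Aspn and Omd. Lum thus stood next to Aspn in WT and next to Fmod in KO.

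The makeup of the family within each library does not depend on how libraries are scaled. The 8 genes together had 1067, 1172 and 1354 counts in WT replicates 1 to 3 and 2445, 1915 and 1528 in KO replicates 1 to 3. Of these counts Lum took 4.31%, 4.35% and 2.95% in WT and 8.18%, 8.04% and 7.85% in KO. Bgn took 26.24%, 30.63% and 24.3% in WT and 37.34%, 42.51% and 31.94% in KO. The shares of both were higher in every KO library than in every WT library. Dcn took 30.5% ± 2.68 in WT and 29.7% ± 2.43 in KO (SD, n = 3), with overlapping ranges.

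Fmod took 16.5% ± 2.07 of the counts in WT and 9.91% ± 2.55 in KO (SD, n = 3), and Ogn 8.67% ± 2.01 and 5.04% ± 1.23, in both cases without overlap. Since the shares add to a fixed total, a share falls when other members rise. For Lum, Bgn, Fmod, Ogn and Prelp the 2-sided exact permutation p was 0.10, which is the smallest that 3 against 3 samples allow, and 0.16 after Benjamini-Hochberg adjustment over the 8 genes. Per 100 counts of Dcn there were 14.3, 15.5 and 8.87 counts of Lum in WT and 26.7, 29.8 and 24.9 in KO. For Bgn these values were 87.2, 109 and 72.9 in WT and 122, 158 and 101 in KO, with overlapping groups. For Fmod they were 51.1, 54.6 and 56.8 in WT and 30.6, 28.5 and 40.2 in KO.

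**Figure D3:**
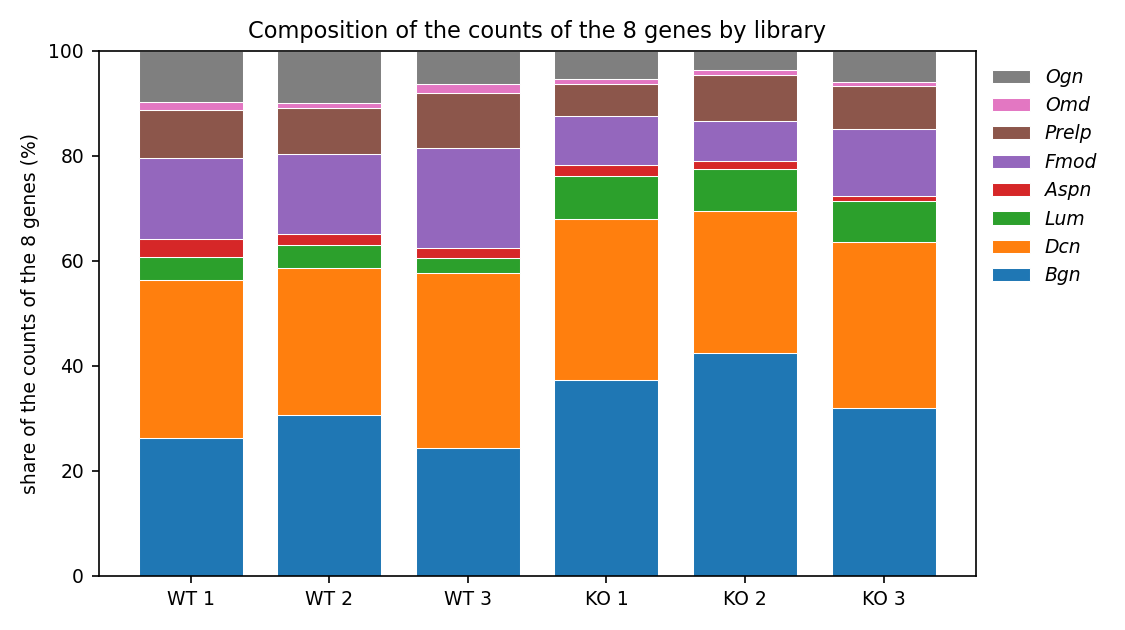
Share of the summed counts of the 8 genes (vertical axis, percent) taken by each gene in the 3 WT and 3 KO libraries, stacked to 100. The Lum band widens from 2.95% to 4.35% in WT to 7.85% to 8.18% in KO, and the Fmod and Ogn bands are narrower in KO.

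Markers of meningeal fibroblasts were higher in the same libraries. Of 18 such markers, which do not include the 8 genes, 17 were tested, 5 rose (0.241% of all tested genes did) and 0 fell. The 5 were Tbx18 (log2 fold change 1.91), Slc6a13 (0.91) and the collagens Col1a1, Col1a2 and Col3a1. The list of fibril collagens below counts these collagens again. Positive values were found for 16 of the 17 and for 52.3% of all tested genes, and the median log2 fold change of the markers was 0.70. Their summed expression was 170 to 187 CPM in WT and 276 to 355 CPM in KO, and none was at 0 in all libraries. The count of 5 dropped to 3 without WT replicate 1 or KO replicate 2, to 2 without WT replicate 2, to 1 without WT replicate 3, to 3 with a term for sex and to 2 among libraries with cerebellar transcripts, with Xist or without Xist. It was 6 with the replicate block, where 1.03% of all tested genes rose. The count was 7 with the block and a term for cerebellar transcripts. It was also higher among libraries without those transcripts, where KO has a lone library. Calls over all tested genes were likewise more numerous in these fits than in the main fit. As a percentage of that sum, Dcn stood at 10.7, 13.0 and 15.7 in WT and at 12.8, 10.7 and 11.1 in KO, with overlapping ranges, and Bgn at 9.37, 14.3 and 11.4 against 15.7, 16.9 and 11.2.

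Lum stood above the WT range by this measure too, at 1.54%, 2.03% and 1.39% in WT and 3.43%, 3.20% and 2.76% in KO. Fmod stood below it, at 5.49%, 7.11% and 8.91% in WT and 3.93%, 3.06% and 4.46% in KO, as did Ogn (3.69% ± 0.828 against 1.95% ± 0.437, SD, n = 3), Omd (0.616% ± 0.192 against 0.368% ± 0.0796) and Aspn (1.04% ± 0.20 against 0.614% ± 0.263). The exact permutation p for each of these 5 genes was 0.10, the smallest possible, and 0.16 after adjustment over the 8 genes. These values depend on 3 fibril collagens that rose, which made up 46.8% to 51.3% of the sum in WT and 57.6% to 65.6% in KO. Against the other 15 markers, a comparison chosen after seeing the data, Fmod stood at 10.3%, 14.2% and 18.3% in WT and 11.4%, 7.62% and 10.5% in KO, so the groups overlapped, as they did for Ogn, Omd and Aspn. Lum still stood above the WT range there, at 2.90%, 4.04% and 2.86% in WT and 9.98%, 7.98% and 6.5% in KO (exact permutation p = 0.10, 0.60 after adjustment over the 8 genes).

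In 6 other lists for cell types that a brain dissection can hold, no marker was called by edgeR, but choroid plexus markers leaned higher in KO, with 8 of 9 positive and a median log2 fold change of 0.35. Bone and cartilage markers summed to 12.0 to 18.7 CPM in WT and 16.6 to 21 in KO, skeletal muscle markers to 8.93 to 10.3 and 9.12 to 13.2, endothelial markers to 158 to 164 and 152 to 171, mural cell markers to 122 to 147 and 144 to 156, choroid plexus markers to 413 to 586 and 539 to 956, and blood cell markers to 243 to 362 and 229 to 367 CPM. The groups overlapped in each. Of the 5, 4, 10, 8, 9 and 4 tested genes of these lists, 0 were called by edgeR or DESeq2, and 1, 0, 0, 3, 2 and 0 had an unadjusted edgeR p under 0.05, where 9.67% of all tested genes did. With the replicate block 1 choroid plexus gene rose, where 1.03% of all tested genes did. With the block and a term for cerebellar transcripts 3 choroid plexus genes and 1 mural gene rose and 1 blood cell gene fell. Bglap, which encodes the bone protein osteocalcin, had 6 counts in all WT libraries together and 3 in all KO libraries. The part of these cell types and of meningeal fibroblasts in the rise of Lum and Bgn was not tested.

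Cerebellar transcripts split the libraries within each group, and Lum and Bgn had positive log2 fold changes on both sides, each of which has a lone library in 1 group (WT replicate 1 and KO replicate 2). Where they were present (WT replicate 1, KO replicates 1 and 3) the log2 fold change was 1.78 for Lum and 1.30 for Bgn, and where they were absent 1.73 and 1.22. Dcn had 0.92 and 0.40, Prelp 0.45 and 0.43, Fmod 0.35 and -0.57, Ogn 0.10 and -0.56, Omd 0.15 and 0.15, and Aspn -0.19 and 0.15. A test of the difference called 0 of 16592 genes in edgeR, with 411 at an unadjusted p under 0.05. The difference was 0.05 (SE 0.54) for Lum and 0.09 (SE 0.437) for Bgn, so sizeable differences in either direction lie within the error. Fmod was the only member among the 411, at a difference of 0.93 (SE 0.359, edgeR adjusted p = 1).

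No other gene of the family was called. Of 11 other family genes 8 were tested and 0 were called by edgeR, DESeq2 or with the replicate block, with log2 fold changes from -0.41 to 0.57. The only one with an unadjusted edgeR p under 0.05 was Chadl, a chondroadherin-like gene, at 19.7, 21.7 and 20.6 CPM in WT and 14.5, 18.7 and 13.7 CPM in KO (-0.41, SE 0.146, edgeR adjusted p = 0.37). All its KO libraries lay below WT, and 111 of its exonic bases overlap L3mbtl2. Optc, which encodes opticin of the eye and neighbours Prelp at 2.3 kb, had 0.57 (SE 0.339), Tsku, a secreted signalling modulator, 0.40 (SE 0.226), Ecm2 0.27 (SE 0.293) and Podn 0.20 (SE 0.249).

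Epyc, a cartilage gene whose exons overlap Gm10754, had -0.01 (SE 0.424), Nyx, a retinal gene, -0.11 (SE 0.61), and Chad, a cartilage gene, -0.31 (SE 0.40). Kera, the corneal gene between Lum and Epyc, had 0 counts in WT and 4 in all KO libraries together, as did Nepn, and Podnl1 had 8 and 8. These 3 did not pass the filter.

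The collagens that these proteins bind included genes that rose. Of 13 genes of collagen fibrils or of collagens attached to them, 13 were tested, 3 rose and 0 fell. Of all tested genes 0.241% rose. The median log2 fold change of the 13 was 0.27. The 3 that rose are also among the meningeal fibroblast markers that rose. With the replicate block 4 rose, where 1.03% of all tested genes did. Col3a1, a collagen of thin fibrils, had 26.4, 18.4 and 25.8 CPM in WT and 102, 77.2 and 66.9 CPM in KO (1.80, SE 0.175, edgeR adjusted p = 0.000368). Every KO library was more than double every WT library. The chains of type I collagen, Col1a1 and Col1a2, rose by 0.95 (SE 0.143) and 0.68 (SE 0.126), with every KO library above every WT library.

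The edgeR adjusted p of Col1a1 was 0.00739, and 0.0529 without WT replicate 3. That of Col1a2 was 0.0275, and 0.105, 0.136, 0.15 and 0.0669 without WT replicate 1, 2 or 3 or KO replicate 2. With a term for sex Col1a2 was not called (edgeR adjusted p = 0.0873). The other 10 collagens were not called and ran from -0.30 to 0.56.

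The list of processing enzymes, which cut or mature these proteins or collagen, also held the enzyme helpers Pcolce and Pcolce2. Its called genes moved in both directions. Of 13 listed, 11 were tested, 1 rose and 1 fell, where 0.241% of all tested genes rose and 0.958% fell. Pcolce, which speeds the removal of procollagen ends by BMP1, rose by 0.96 (SE 0.174), from 4.62, 5.14 and 5.54 CPM to 10.1, 10.7 and 8.89 CPM, with an edgeR adjusted p of 0.0238. Leaving out KO replicate 2 (0.0996) or WT replicate 1, 2 or 3 (0.0983, 0.113 and 0.0856) ended this call, as did a term for sex (0.0824). With the replicate block 2 of the 11 rose, where 1.03% of all tested genes did. Adamts4, a proteoglycan-cleaving protease also known from oligodendrocytes, fell from 29.2, 25.3 and 30.5 CPM to 5.47, 4.66 and 4.57 CPM (log2 fold change -2.53, SE 0.148, edgeR adjusted p = 1.45e-05). Bmp1, which removes the propeptide of biglycan, had 0.10 (SE 0.139).

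Among bound growth factors and matrix proteins, 9 of 10 were tested, 0 rose and 1 fell, where 0.958% of all tested genes fell. Bmp4, a growth factor that biglycan binds and that immature oligodendrocytes also make, went from 10.4, 10.5 and 9.51 CPM to 4.99, 5.86 and 3.43 CPM. Its log2 fold change was -1.09 (SE 0.21, edgeR adjusted p = 0.0331, and 0.103, 0.147, 0.103 and 0.0827 without WT replicate 1, 2 or 3 or KO replicate 3). Tgfb1, Tgfb2 and Tgfb3, the TGF-beta ligands, had -0.18, 0.21 and 0.05. Of 13 reported receptors of these proteins 12 were tested and 0 were called by edgeR, DESeq2 or with the replicate block, with 0 at an unadjusted edgeR p under 0.05. The smallest p belonged to Met (-0.36, SE 0.167) and Itgb1 (-0.21, SE 0.112), and Tlr2 and Tlr4 had 0.01 and -0.28. Among libraries without cerebellar transcripts Met had -0.83 and Itgb1 -0.36, and among those with them -0.08 and -0.23. Each of these sets has a lone library in 1 group.

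None of the enzymes that build the sugar chains was called as higher. Of 14 tested genes of chondroitin and dermatan sulfate 2 fell and 0 rose, where 0.958% of all tested genes fell and 0.241% rose. Chst3, a chondroitin 6-sulfotransferase, went from 10.7, 8.38 and 6.86 CPM to 3.28, 2.33 and 1.78 CPM, so that the groups stood well apart (log2 fold change -1.80, SE 0.266, edgeR adjusted p = 0.00649). Ust, a uronyl 2-sulfotransferase, had -0.67 (SE 0.135, edgeR adjusted p = 0.0417). The call of Ust was lost without each library in turn except KO replicate 1, at an edgeR adjusted p of up to 0.186, with library totals only (0.0546) and with a term for sex (0.112).

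Of 6 genes of the linker that starts a chain 0 were called by edgeR, with 1 at an unadjusted p under 0.05. This was Xylt1, the xylosyltransferase that adds the first sugar, at 10.4, 9.46 and 9.15 CPM in WT and 5.72, 5.67 and 2.10 CPM in KO (-1.10, SE 0.306, edgeR adjusted p = 0.189). It was called with the replicate block (-1.18, edgeR adjusted p = 0.00403) and by DESeq2 (0.0252). Fam20b, a xylose kinase, came next (-0.16, SE 0.0841). Of 6 tested genes of keratan sulfate, the chain of lumican and fibromodulin, 0 were called by edgeR, DESeq2 or with the block and 0 had an unadjusted edgeR p under 0.05. B3gnt7 and Chst1, with the smallest p, had -0.44 (SE 0.342) and -0.09 (SE 0.12).

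**Figure D4:**
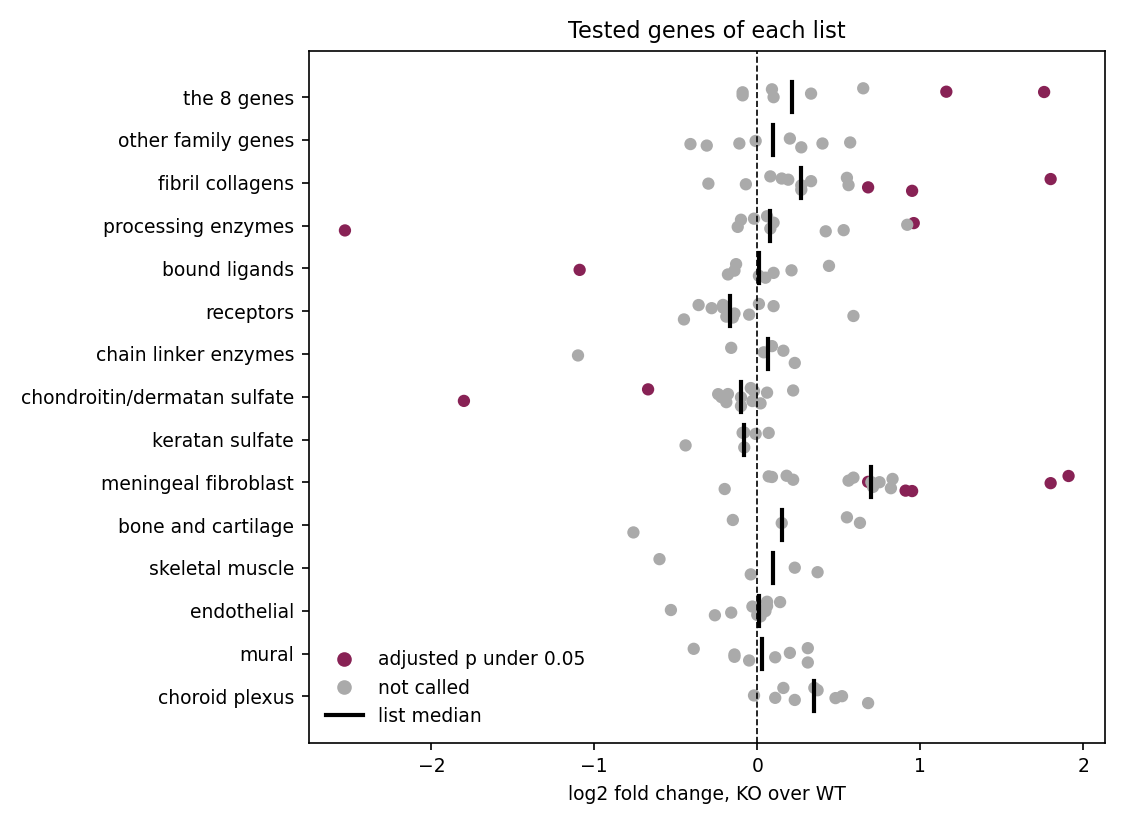
Log2 fold change of KO over WT (horizontal axis) of every tested gene in each list shown, with called genes in purple, others in grey and the list median as a black bar. The medians are 0.21 for the 8 genes, 0.27 for fibril collagens and 0.70 for meningeal fibroblast markers, and -0.10 for enzymes of chondroitin and dermatan sulfate. Col1a1, Col1a2 and Col3a1 are drawn both as fibril collagens and as meningeal fibroblast markers.

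Profiles over the 6 libraries, taken as log2 CPM minus the gene's own mean, were compared by their root mean square difference. The pair of members most alike was Dcn and Prelp, at 0.26, and Lum and Bgn differed by 0.33. Lum and Fmod were least alike, at 0.96. Against the median profile of the 8 genes, the closest among 15713 other genes that averaged 1 CPM or more were Foxf2 (0.087), Trhr (0.09), Fam111a (0.091), Slc4a5 (0.094) and Csrp2 (0.095).

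Since that median mixes genes that were and were not called, the closest genes to Lum and to Bgn were also listed, a choice made after their values were seen. For Lum they were Col4a6 (0.158), Tlr12 (0.181), Col15a1 (0.213), Col3a1 (0.304) and Slc1a5 (0.318). Col15a1, a basement membrane collagen, went from 9.93, 11.4 and 10 CPM to 47.4, 49.5 and 32.5 CPM. For Bgn they were Emp1 (0.161), Col1a1 (0.184), Scube3 (0.193), Lgals3 (0.213) and Col6a3 (0.22). Col6a3, a chain of type VI collagen, which biglycan binds, went from 6.56, 6.01 and 7.82 CPM to 17.6, 15.1 and 10 CPM. In both collagens all KO libraries lay above WT, with KO replicate 3 the lowest KO library. Since both were picked for profiles like those of Lum or Bgn, this pattern follows largely from the choice. Emp1, Scube3 and Lgals3 were not called (edgeR adjusted p of 0.155, 0.28 and 0.37).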

How the data were processed

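RNA was extracted with Trizol and sequenced as 150 bp paired ends from TruSeq mRNA libraries, per the labels' protocols. Per the submitters' processing notes, the tools were STAR 2.3.0e, Trimmomatic 0.32, featureCounts 1.5.0, FastQC 0.11.2 and DESeq2, on mm10. Strand setting and the handling of reads with several positions: not given in the sources used here. The authors deposited whole-number counts per gene, and a normalized signal equal to the count divided by 1 size factor per library, which was used only in an alternative.

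Counts were filtered with filterByExpr, scaled with TMM factors and fitted with edgeR 4.0.16 (R 4.3.3) by genotype, with 4 residual degrees of freedom. A gene was called at a Benjamini-Hochberg adjusted p under 0.05 over all tested genes, and the SE is the log2 fold change divided by the root of the quasi-likelihood F. The procedure was tested on simulated counts that held no differences by sex, cerebellar transcripts or replicate number. That test says nothing about libraries that differ in these. Alternatives used DESeq2 1.42.0, limma 3.58.1, other scalings and filters, terms for cerebellar transcripts (Gabra6 above 5 CPM) and sex (Xist above 5 CPM), length offsets, and each library left out. Within-sex fits were added after the data were seen. Exonic lengths are from GENCODE M21 basic transcripts, found for 87.8% of tested genes. Log2 CPM for profiles used a prior count of 2. The named genes are all members, all family genes, and from each further list the called genes or else the 2 with the smallest p. This rule was not applied to the cell type lists, of which only the called meningeal fibroblast markers were named. Bmp1, the TGF-beta and Toll-like receptor genes, Bglap, and the genes most like Lum and Bgn were named besides.

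The members and lists were chosen with earlier results of these data known. Replicate numbers are shared by both groups and unexplained in the labels. Deviations of same-numbered samples from their group means correlated at 0.351, 0.334 and 0.177 over genes, and those of differently numbered samples at -0.381 to 0.1. From these data the numbers were used as pairs in the fits with the replicate block and in the folds of same-numbered libraries. The main fit did not use them. Library pairs within a group differed by 6.75 to 27.41 times the chi-square of counting noise over genes with 20 or more counts, so none was treated as a duplicate.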

Additional observations from a re-analysis of the deposited data

How the results depend on the processing

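Of the 8 genes, 2 were called in the fit without covariates and 1 to 2 without each library in turn (1 when KO replicate 2 or WT replicate 1 or 3 was absent). By DESeq2, with the replicate block, and with the block and a term for cerebellar transcripts, 3 were called. The added gene was Dcn, with a log2 fold change of 0.87 in the last of these fits. The count was 1 among libraries with Xist and 0 among those without. Lum was called under every alternative except those within one sex (edgeR adjusted p of 0.119 and 0.0603), and Bgn under every alternative except leaving out the 3 libraries named above and the set without Xist (0.0735). Over all genes 199 were called, 315 by DESeq2, 566 with the replicate block, 535 with the block and a term for cerebellar transcripts, 1254 among libraries without those transcripts, 129 with a term for sex, 50 among libraries with Xist, and 100 to 305 without each library in turn. Beside Dcn, Xylt1 and Prmt5, the replicate block changed no other call of a gene named here and tested under the alternatives. Of the 8 called genes in the lists of collagens, processing enzymes, bound proteins and sugar-chain enzymes, 2 (Adamts4 and Col3a1) were called among libraries with Xist. The sets of 3 libraries rest on a lone sample in 1 group, and those by Xist were chosen after seeing the data. In the fit with the block and a cerebellar term, only the pair of replicate 3 differed in cerebellar transcripts. The genotype difference in that fit thus rests on replicates 1 and 2. The KO to WT folds of Dcn were 2.27 and 1.47 there and 1.13 in replicate 3.

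Values near 0 changed sign. Fmod had 0.04 with the block and cerebellar term and 0.35 among libraries with cerebellar transcripts, and -0.22 to 0.08 without each library. Ogn had 0.10 among libraries with these transcripts, 0 among those without Xist, and -0.34 to 0.10 without each library. Omd had -0.68 without Xist, and -0.11 to 0.35 without each library. Aspn had -0.02 by limma-voom, -0.03 by limma on the deposited signal, -0.02 with the cerebellar term, -0.19 among libraries with cerebellar transcripts, -0.13 with the sex term, -0.95 without Xist, and -0.41 to 0.41 without each library. Epyc had 0.02 with upper-quartile factors and with library totals, 0.08 by both limma fits, 0.04 with the block, 0.10 with block and cerebellar term, 0.20 without cerebellar transcripts, 0.23 with the sex term and 0.86 with Xist. Ecm2 had -0.38 and Nyx 0.24 without cerebellar transcripts. Nyx had 0.01 with block and cerebellar term and 0.89 with Xist, and Podn -0.27 with Xist. Chst1 had 0.11 with cerebellar transcripts and 0.06 without Xist. Without each library Epyc ran from -0.3 to 0.28, Ecm2 from -0.08 to 0.53 and Nyx from -0.88 to 0.60. The mean log2 share of Dcn in the meningeal marker sum differed between KO and WT by -0.18 with fibril collagens in the sum and by 0.21 without them. The cause was not tested. Counts of 12 to 52 per library limit Omd and Aspn.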
